A study of Mus musculus with 18 samples.

Results

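Mouse esophageal tumor organoids that carried the same declared genotype were sequenced in 5 libraries of 2 deposited tables, and their expression was compared across the tables. Both groups were declared Trp53-/-, Myc-overexpressing (Myc OE), with a guide RNA against Cdkn2a (sgCdkn2a) and a guide against Tgfbr2 (sgTgfbr2). The 2 tumor sgTgfbr2 libraries have no treatment in their labels and lie in one table with 3 tumor sgScr libraries, declared Trp53-/-; Myc OE; sgCdkn2a. The 3 vehicle libraries were given DMSO after 72 h of culture and lie in another table with 3 libraries given 2 µM pinaverium bromide (PB), a calcium channel blocker. The members are these 5 of the 18 libraries of the series, taken by table, declared stage and genotype and joined by gene symbol. Organoids are three-dimensional cultures of dissociated tissue, here grown in Matrigel with EGF, FGF10, Noggin, Wnt-3A medium, R-spondin, Y27632 and 2 µM A83-01, which blocks the kinase of the type I TGF-beta receptor, as listed for all libraries. The labels do not name separate animals, clones or cultures for the replicates, so the spread that the p-values rest on may be technical. Every tumor sgTgfbr2 library lies in one table and every vehicle library in the other, and the labels give no sequencing batch or date, so table and group cannot be told apart. DMSO treatment differs with them too.

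The mouse esophagus is lined by stratified squamous epithelium, whose basal cells carry keratins 5 and 14 and whose upper cells carry keratins 4 and 13 and cornify. It opens into a stomach whose front part is squamous and whose glandular part is a single layer of mucous, chief, parietal and endocrine cells making digestive enzymes, acid and mucins. TGF-beta binds the type II receptor encoded by Tgfbr2, which activates the type I receptor, and that receptor phosphorylates Smad2 and Smad3 to regulate genes of matrix, growth arrest and cell shape.

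The tumor sgTgfbr2 libraries held glandular stomach, digestive enzyme, connective tissue and immune cell transcripts that the vehicle libraries held at or near 0 counts, beside squamous keratins that both groups expressed. The vehicle libraries held more of the mitosis, glycolysis, stress response, interferon and growth factor response transcripts. Of 14484 genes tested, 6889 (47.6%) differed by at least 2-fold at an adjusted p below 0.05 in edgeR's quasi-likelihood test, 3790 higher (26.2%) and 3099 lower (21.4%) in tumor sgTgfbr2. The adjusted p alone called 11560 genes (79.8%), so the word called below asks for both the p and the fold, and every list is read against 26.2% and 21.4%. Levels are given as CPM of the library total, a gene's count scaled by all counts of its library, and fold changes as log2 of tumor sgTgfbr2 over vehicle after TMM scaling, as are ratios and bounds, and on that scale the median over all tested genes was 0.04. Scaling to library totals moved that median by −0.28 and turned the split of calls to 3240 higher and 4038 lower, and scaling to pan-epithelial genes moved it by −0.16 and gave 3443 and 3631.

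Promoters of called genes from the glandular stomach and squamous lists are shown here. The stomach list gave some of the widest differences between the groups, at a median log2 fold change of 12.75. The squamous list differed less, at a median of 1.46. Each runs from 250 bases before to 50 after the gene's start, on the gene's strand, which is the plus strand for all 6, from RefSeq on GRCm38.p6. Capitals mark 3 short motifs searched on both strands. TATAAA, found near many gene starts, was searched in both sets. AGATAA, which GATA factors bind, is marked in the stomach set. TGANTCA, which AP-1 factors bind, is marked in the squamous set.
Pgc (chr17:47726592-47726891): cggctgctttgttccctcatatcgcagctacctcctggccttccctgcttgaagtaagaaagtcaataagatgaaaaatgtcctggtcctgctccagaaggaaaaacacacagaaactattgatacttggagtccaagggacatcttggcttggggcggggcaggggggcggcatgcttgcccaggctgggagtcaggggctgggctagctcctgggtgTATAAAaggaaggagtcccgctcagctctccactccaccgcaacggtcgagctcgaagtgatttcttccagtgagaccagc
Chia1 (chr3:106113132-106113431): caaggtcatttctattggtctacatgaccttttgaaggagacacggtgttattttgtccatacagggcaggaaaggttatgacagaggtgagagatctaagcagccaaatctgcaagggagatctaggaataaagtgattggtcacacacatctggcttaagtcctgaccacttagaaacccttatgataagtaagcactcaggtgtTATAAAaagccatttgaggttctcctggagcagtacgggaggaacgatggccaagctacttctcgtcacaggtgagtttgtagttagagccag
Gkn2 (chr6:87373115-87373414): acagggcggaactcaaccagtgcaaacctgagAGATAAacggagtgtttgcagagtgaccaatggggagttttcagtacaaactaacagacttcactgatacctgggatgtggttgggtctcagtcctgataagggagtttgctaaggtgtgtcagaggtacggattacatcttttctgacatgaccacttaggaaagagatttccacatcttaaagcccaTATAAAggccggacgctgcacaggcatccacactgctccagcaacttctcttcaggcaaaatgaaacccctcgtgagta
Rptn (chr3:93393449-93393748): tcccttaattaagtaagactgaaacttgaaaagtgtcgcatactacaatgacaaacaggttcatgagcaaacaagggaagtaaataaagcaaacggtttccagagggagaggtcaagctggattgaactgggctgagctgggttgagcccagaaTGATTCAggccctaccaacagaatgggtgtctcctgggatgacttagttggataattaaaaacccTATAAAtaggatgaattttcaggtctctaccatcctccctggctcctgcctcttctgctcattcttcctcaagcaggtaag
Tgm3 (chr2:130012090-130012389): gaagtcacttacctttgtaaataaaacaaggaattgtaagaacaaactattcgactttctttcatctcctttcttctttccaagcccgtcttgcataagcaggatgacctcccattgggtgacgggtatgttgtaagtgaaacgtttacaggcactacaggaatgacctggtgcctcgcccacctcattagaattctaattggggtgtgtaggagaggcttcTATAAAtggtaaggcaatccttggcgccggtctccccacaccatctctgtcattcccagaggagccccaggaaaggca
Calm4 (chr13:3837507-3837806): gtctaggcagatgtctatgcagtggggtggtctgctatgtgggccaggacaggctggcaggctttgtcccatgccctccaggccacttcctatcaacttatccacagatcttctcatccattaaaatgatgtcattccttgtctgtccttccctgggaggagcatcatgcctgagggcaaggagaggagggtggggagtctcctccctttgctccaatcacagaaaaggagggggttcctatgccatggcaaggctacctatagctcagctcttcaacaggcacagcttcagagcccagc
TATAAA lay in the Pgc promoter 31 bases before the start, in Chia1 43, in Gkn2 29, in Rptn 31 and in Tgm3 28 bases before, and was not found in the window of Calm4. AGATAA lay in Gkn2 218 bases before the start and TGATTCA in Rptn 96 bases before. Of the 19 called glandular stomach genes, 12 matched the table with 13 promoters, of which 5 held TATAAA (38.5%) and 5 AGATAA (38.5%). Of the 16 called suprabasal squamous genes, 14 matched with 15 promoters, of which 9 held TATAAA (60%) and 8 TGANTCA (53.3%). Over all 32851 promoters of the same length, the shares were 13.6% for TATAAA, 11.2% for AGATAA and 7.81% for TGANTCA. Other motifs and lists were searched too. TGANTCA lay in 15.4% of the stomach promoters and AGATAA in 6.67% of the squamous ones. CAGCTG lay in 7.69% and 20%, against 16.3% of all promoters, and CACGTG and TGTTTAC in none of either set. Of 13 fibroblast promoters, 23.1% held TATAAA, 7.69% TGANTCA and 0% AGATAA. The 3 skeletal muscle promoters held none of these. Such matches describe letters in a window and do not show a binding site.

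Depth lay at 18411737 and 17852394 counts in tumor sgTgfbr2 and at 15334738 to 16479322 in vehicle, so that 3 counts stood for 0.163 to 0.196 CPM. The 10 most abundant genes took 9.97% and 10.6% of the counts in tumor sgTgfbr2 and 4.45% to 4.48% in vehicle. The tumor sgTgfbr2 pair differed from each other by a chi-square of 17.9 per degree of freedom over genes, against 1.79 to 2.03 between vehicle pairs, so the vehicle libraries were closer to each other than the tumor sgTgfbr2 libraries were. Differences also followed transcript length. Among 7669 protein-coding genes of at least 10 CPM in all 5 libraries, the median log2 fold change was 0.46 in the group with the shortest transcripts and −0.68 in the group with the longest, of 5 groups equal in size to within 4 genes. Tumor sgScr against vehicle ran from −0.22 to −1.43 over the same length order, whereas tumor sgTgfbr2 against tumor sgScr of its own table lay between 0.38 and 0.50 and PB against vehicle of its own table between −0.10 and −0.06. Against the premalignant libraries of the series, vehicle ran from −0.26 to 0.49 and tumor sgTgfbr2 from −0.09 to −0.42. The 2 tumor sgTgfbr2 libraries also differed along length, replicate 2 minus replicate 1 running from −0.14 to 0.28. A fit with each library's length trend removed, chosen after seeing the data, called 3694 genes higher and 2827 lower. It changed the counts of called genes in 27 of 61 lists, by at most 2 genes in either direction.

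**Figure D1:**
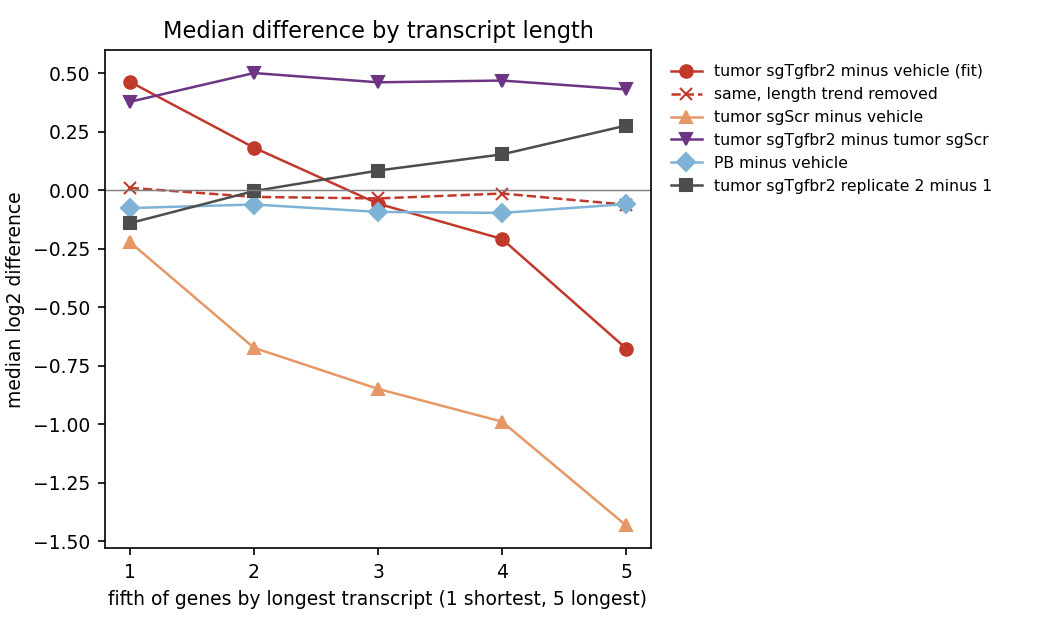
Median log2 difference (y axis) in 5 groups of 7669 protein-coding genes ordered by longest transcript (x axis, 1 shortest to 5 longest). The red line is the fitted tumor sgTgfbr2 over vehicle, falling from 0.46 to −0.68. The other solid lines are differences of mean log2(CPM + 0.5), and the 2 within-table comparisons between groups are nearly flat.

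The declared alterations were read first. Tgfbr2, the gene that both groups' guide targets, stood at 67.6 and 71.3 CPM in tumor sgTgfbr2 and 93.3, 94.6 and 103 CPM in vehicle. The groups did not overlap in CPM, but the log2 fold change of −0.20 ± 0.07 (SE, adjusted p = 0.0291) was under 2-fold, and with the length trend removed it turned to 0.55. Tumor sgScr libraries, without that guide, held 120.3, 112 and 129 CPM and PB libraries 69.6, 68.7 and 66.9 CPM. Gene-level counts cannot show whether the remaining transcripts carry a guide-made lesion. Trp53 was counted in both groups, although both were declared Trp53-/-. It stood at 26.8 and 22.9 CPM against 74.5, 70.5 and 73.9 CPM, lower in tumor sgTgfbr2 by a log2 fold change of −1.27 ± 0.10 (adjusted p = 9.08e-06). Gene-level counts cannot show whether these Trp53 transcripts are intact either. Cdkn2a, which encodes the p16 and p19Arf growth arrest proteins, stood at 169 and 136 against 307, 277 and 294 CPM, a log2 fold change of −0.66 ± 0.10 (adjusted p = 0.000561) that did not reach 2-fold and came to −1.19 with the length trend removed. Both groups therefore held over 100 CPM of Cdkn2a, while the 3 tumor sgScr libraries held 0.529, 1.11 and 0 CPM. Myc, a growth transcription factor declared overexpressed in both groups, stood at 51.9 and 93.4 CPM in tumor sgTgfbr2 and 405, 407 and 417 CPM in vehicle. The log2 fold change of Myc was −2.22 ± 0.20 (adjusted p = 2.18e-05), and the lower of the vehicle libraries lay over 4 times above the higher tumor sgTgfbr2 library. Smad3, the signal carrier downstream of the receptor, stood at 51.2 and 64.5 against 125, 127 and 126 CPM. Its log2 fold change of −0.84 ± 0.09 (adjusted p = 5.48e-05) was under 2-fold, but it passed under library-total scaling (−1.12), under pan-epithelial scaling (−1.0) and without tumor sgTgfbr2 replicate 2 (−1.0).

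**Figure D2:**
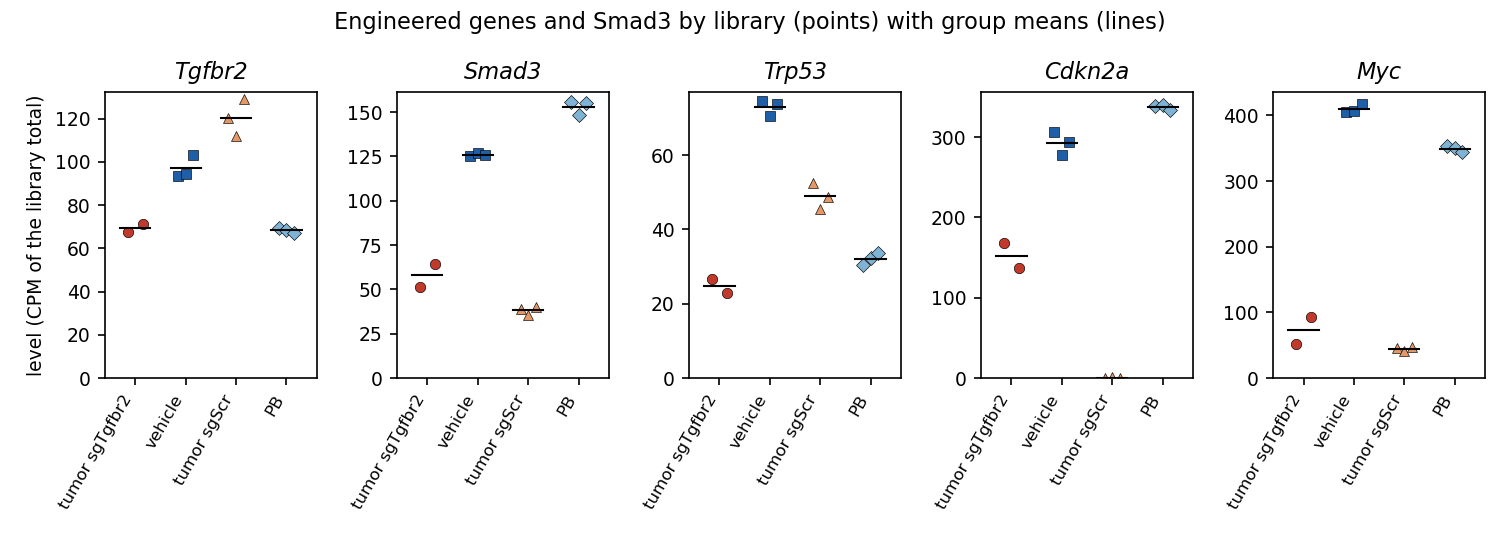
Level in CPM of the library total (y axis from 0) of the 4 engineered genes and Smad3 in each library (points) of 4 groups, with the group mean as a line. Myc is about 410 CPM in vehicle against 51.9 and 93.4 CPM in tumor sgTgfbr2, and Cdkn2a is near 0 only in tumor sgScr among the groups drawn.

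Genes of the glandular stomach gave the widest differences. Their summed level was 32467 to 35431 CPM in tumor sgTgfbr2 and 9.04 to 11.4 CPM in vehicle, with 2.68 to 4.18 CPM in tumor sgScr and 3.87 to 4.61 CPM in PB. Of 20 tested genes of the list, 19 were called higher and none lower, with a median log2 fold change of 12.75, or 10.84 when genes without a vehicle count are set at their bound of 3 counts over the group. Pgc, which encodes the chief cell proenzyme progastricsin, stood at 27164 and 24156 CPM in tumor sgTgfbr2 and at 0 in all 3 vehicle libraries, at least 496697-fold higher (adjusted p = 1.52e-08). It alone made up most of the list's sum. Chia1, an acidic chitinase secreted by chief cells, stood at 1893 and 1862 CPM and Gkn2, a gastrokine of surface mucous cells, at 1117 and 1103 CPM, again with no vehicle count and at least 36307-fold and 21476-fold higher. Gkn1, the other gastrokine named here, stood at 1491 and 1374 CPM, and Gif, gastric intrinsic factor, at 729 and 747 CPM. The vehicle libraries held 1 count of Gkn1 and 2 of Gif in all, which put the ratio for Gif at 21397 higher (95% counting interval 5923 to 176693). Genes picked for their cell type after their values were seen covered the remaining gland cells. The proton pump subunits of parietal cells, Atp4a and Atp4b, averaged 669 and 246 CPM in tumor sgTgfbr2 against 0.74 and 0.317 CPM in vehicle. The pit cell mucin Muc5ac averaged 341 against 0.0628 CPM and the neck cell mucin Muc6 159.9 against 2.68 CPM. Aqp5, a water channel, was the tested gene of the list that was not called, at 7.93 and 5.1 against 4.43, 4.83 and 4.82 CPM, and the gastric lipase gene Lipf was too low to test. Cldn18, a claudin of stomach and lung epithelium, stood at 96.2 and 93.6 CPM and at 0 in all 3 vehicle libraries.

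Genes that mark endocrine cells of the gut were higher as well. Of 7 tested endocrine genes all 7 were called higher, and their sum was 319 to 396 CPM against 2.48 to 3.31 CPM. Sst, the hormone somatostatin, stood at 102 and 82.2 CPM with no vehicle count (at least 1780.1-fold higher), and Ghrl, the hormone ghrelin, at 193 and 153 against 2.00, 1.37 and 2.38 CPM (log2 fold change 6.77 ± 0.19, adjusted p = 4.02e-08). Chga, chromogranin A of secretory granules, stood at 83.8 and 64.4 against 0.364, 0.0652 and 0.0625 CPM. Neurog3, Neurod1 and Pcsk1 were too low to test.

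Of the exocrine pancreas list, 6 of 8 tested genes were called higher and 1 lower, and 10 of its 18 genes were too low to test. No vehicle library held a count of 12 of the 18 genes, and no tumor sgTgfbr2 library a count of 2. Clps, the lipase cofactor colipase, stood at 6713 and 5659.6 CPM and Pla2g1b, a secreted phospholipase A2, at 2945 and 2285 CPM, both with no vehicle count and at least 119798-fold and 50669-fold higher. Together they made up most of the list's sum of 7987 to 9705 CPM in tumor sgTgfbr2. Cela1, an elastase gene, stood at 24.5 and 20.9 CPM and Pnliprp2, a lipase-related gene, at 14.4 and 13.8 CPM. Cpa1, carboxypeptidase A1, and Pnlip, pancreatic lipase, were the 2 with no tumor sgTgfbr2 count, and Cel, bile salt lipase, was the 1 called lower (0 and 0.168 against 0.728, 0.652 and 1.06 CPM). Intestinal genes were low in absolute terms, summing to 28.8 to 32.4 CPM against 6.98 to 7.75 CPM, with 7 of 8 tested genes called higher. Cdx1 and Cdx2, which specify intestine, held no count in any of the 5 libraries, and Vil1, the microvillus protein villin, stood at 1.52 and 2.41 against 0.546, 0.587 and 1.31 CPM, a call lost in 4 of the alternatives, among them without vehicle replicate 1 or 2. Of the liver list, 4 of 4 tested genes were called higher, with Apoa1, an apolipoprotein, at 63.5 and 40.1 CPM against 0.243, 0.326 and 0 CPM, whereas Alb, albumin, stayed at 1.36 and 0.448 CPM and was not tested. The lung and airway list summed to 3.87 to 5.65 CPM against 1.82 to 2.44 CPM, with 1 of 3 tested genes called higher and 2 lower. The 1 called higher was Scgb3a1, a secretoglobin of airway, at 3.75 and 2.52 against 0.303, 0.652 and 0.0625 CPM. The 2 lower were Foxj1, a factor of ciliated cells, at 0.217 and 0.392 against 1.15, 0.913 and 1.06 CPM, and Sftpb, a surfactant gene. The surfactant genes Sftpc and Sftpa1 held no count in any of the 5 libraries, and Sftpb, at 0.364, 0.783 and 1.31 CPM in vehicle, held none in tumor sgTgfbr2.

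Transcription factors of columnar epithelium were higher as well. Of 14 tested, 11 were called higher and none lower, with a median log2 fold change of 4.18. Hnf4a, a nuclear receptor of gut and liver epithelium, stood at 16.8 and 23.5 CPM and Gata5 at 9.94 and 9.52 CPM, both with no vehicle count. Gata4, a GATA factor of the glandular stomach, stood at 48.6 and 59.7 CPM against 0.0607, 0 and 0 CPM, and Spdef, a factor of secretory cells, at 24 and 18.1 against 0.485, 0.13 and 0.188 CPM. In tumor sgScr, Hnf4a held no count and Gata4 stood at 0.317, 0.0464 and 0.416 CPM. The premalignant libraries of the series held Gata4 at 1.47 to 14.5 CPM. Sox9 and Foxa1 were among those tested and not called.

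**Figure D3:**
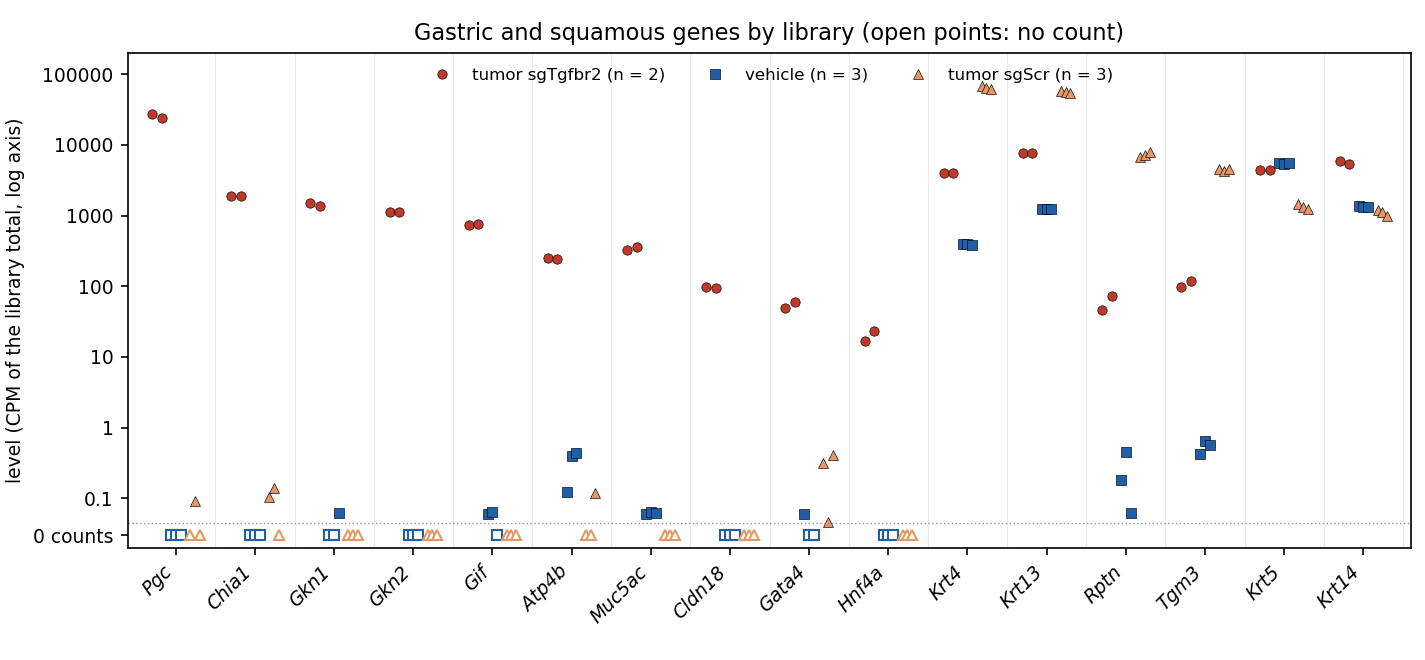
Level in CPM (log axis) of glandular stomach genes, columnar transcription factors and squamous genes in each library of tumor sgTgfbr2, vehicle and tumor sgScr, with open points on the bottom line for libraries without a count. Pgc to Hnf4a lie above 10 CPM only in tumor sgTgfbr2 among these groups, while Krt4, Krt13, Rptn and Tgm3 are highest in tumor sgScr.

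Both groups expressed the basal squamous keratins, while genes that anchor basal cells were lower in tumor sgTgfbr2. Krt5, the basal type II keratin, stood at 4408 and 4382 CPM against 5542, 5437 and 5535 CPM, a log2 fold change of −0.05 ± 0.05 (adjusted p = 0.42). Krt14, its type I partner, stood at 5949 and 5323 against 1349.9, 1310.3 and 1329.5 CPM and was higher in tumor sgTgfbr2 (log2 fold change 2.36 ± 0.07, adjusted p = 5.28e-08). Among the 12 basal genes, Krt14 was the 1 called higher and 5 were called lower, with a median of −0.90. Itgb4, the beta4 integrin that anchors basal cells, stood at 119 and 153 against 1274, 1228 and 1266 CPM (log2 fold change −2.93 ± 0.10, adjusted p = 1.02e-07). Col17a1, the hemidesmosome collagen, stood at 184 and 196 against 1063, 1036 and 1064 CPM. Dst, which links keratin to hemidesmosomes, stood at 92.7 and 128 against 670.0, 649.8 and 669 CPM, but its log2 fold change of −2.31 ± 0.12 came to −0.82 with the length trend removed, under 2-fold.

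Genes of the upper squamous layers were mostly higher in tumor sgTgfbr2. Of 23 tested suprabasal and cornified genes, 14 were called higher and 2 lower, with a median of 1.46. Krt4 stood at 3992 and 3991 CPM in tumor sgTgfbr2 against 391, 395 and 386 CPM in vehicle (log2 fold change 3.63 ± 0.05, adjusted p = 3.04e-09) and Krt13 at 7771 and 7654 against 1255, 1254 and 1235 CPM. Rptn, repetin of the cornified envelope, stood at 46.4 and 72.8 against 0.182, 0.456 and 0.0625 CPM. Tgm3, a transglutaminase that crosslinks that envelope, stood at 98 and 119 against 0.425, 0.652 and 0.563 CPM. These genes were present in tumor sgTgfbr2 at a fraction of the level in tumor sgScr, where Krt4 stood at 66988, 63962 and 61413 CPM. Ivl and Sprr1b were the 2 called lower, and Krt1, an epidermal keratin, held no count in tumor sgTgfbr2. Stress keratins, which wounded epithelium induces, were higher in 3 of 4, with Krt6a at 8395 and 8603 against 2839, 2776 and 2790.0 CPM and Krt16 at 279 and 265 against 60.3, 59.3 and 62.7 CPM, though reads of the Krt6a and Krt6b copies are hard to assign.

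Simple epithelial keratins, usual in glandular cells, were higher in 4 of 5. Krt7 stood at 2611 and 2294 against 252, 252 and 255 CPM, Krt8 at 352 and 342 against 37.8, 41.1 and 39.1 CPM and Krt20 at 152 and 166 against 4.85, 4.83 and 3.94 CPM. Krt18, the partner of Krt8, was not called and stood at 436 and 412 against 690.1, 678 and 677 CPM. Pan-epithelial genes differed little, with 3 of 12 called higher, none lower and a median of 0.11, which turned to −0.17 under library-total scaling. Epcam, an epithelial adhesion protein, stood at 732 and 701 against 1072, 1058 and 1080.2 CPM and Cdh1, E-cadherin, at 373 and 399 against 674, 666 and 669.9 CPM, neither of them called. Among squamous transcription factors, Zfp750 and Grhl3, which drive terminal differentiation, were called higher (1.68 ± 0.09 and 1.39 ± 0.10). Pax9, Tfap2c and Sox15 were called lower, with Pax9 at 12.5 and 21.2 against 66.9, 65.6 and 72.8 CPM. Trp63 and Sox2 were tested and not called.

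Connective tissue, vessel and immune genes were present in tumor sgTgfbr2 and near absent in vehicle. The fibroblast and matrix list summed to 4322 to 4411 CPM against 236 to 250.4 CPM, and 19 of 20 genes were called higher and none lower. Most of the vehicle sum came from Fbln1, the list's gene that was not called, at a mean of 214 CPM in vehicle and 139.8 CPM in tumor sgTgfbr2. Col3a1, a fibrillar collagen, stood at 871 and 893 CPM in tumor sgTgfbr2 and 952, 878 and 848 CPM in tumor sgScr, and at 0 in all 3 vehicle and all 3 PB libraries, at least 17056-fold higher than vehicle (adjusted p = 1.38e-08). Dcn, decorin, stood at 389 and 388 CPM and Lum, lumican, at 153 and 166 CPM, also with no vehicle count. Vim, the filament protein of mesenchymal cells, stood at 251 and 242 against 0.182, 0 and 0.0625 CPM. Fewer cells of a type and less RNA per cell cannot be told apart in such bulk libraries.

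Smooth muscle genes summed to 1962 to 2117 CPM against 146 to 150.1 CPM, with 11 of 12 tested genes called higher and 1 lower. Acta2, smooth muscle actin, stood at 512 and 483 against 0.607, 0.196 and 0.625 CPM and Myh11, smooth muscle myosin, at 193 and 194 against 0.121, 0.587 and 0.75 CPM. The gene called lower was Smtn, smoothelin, which made up most of the vehicle sum at a mean of 141 CPM against 54.5 CPM. Skeletal muscle genes, by contrast, were low in both groups, at sums of 30.5 to 31.7 CPM and 31.3 to 34.3 CPM, against 22862 to 23600.4 CPM in tumor sgScr of the same table as tumor sgTgfbr2. The defining genes Acta1, Ckm and Myh1 lay at or under 1.12 CPM in all 5 libraries, and of 10 tested genes 1 was called higher and 3 lower. Mylpf, a myosin light chain, stood at 1.09 and 0.56 against 6.98, 6.59 and 6.44 CPM.

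Endothelial genes were called higher in 14 of 14, at sums of 288 to 302 CPM against 13.5 to 17.2 CPM. Pecam1, a junction protein of vessel lining, stood at 35.5 and 42.1 against 0.182, 0.326 and 0.25 CPM, and Cdh5, VE-cadherin, at 20.4 and 19.1 against 0, 0 and 0.0625 CPM. Macrophage and myeloid genes were called higher in 13 of 14, at 1436 to 1540.1 CPM against 42.8 to 48.6 CPM. Lyz2, lysozyme, stood at 582 and 573 CPM and C1qa, of the first complement component, at 184 and 139 CPM, with no vehicle count of either. Ptprc, the pan-leukocyte antigen CD45, stood at 13.7 and 14.1 against 0.303, 0.13 and 0.0625 CPM, while Cd68, the 1 tested gene not called, stood at 27.2 and 25.8 against 39.3, 42.3 and 37 CPM. Neutrophil genes were called higher in 5 of 6, with S100a8, a calprotectin subunit, at 66.2 and 61.1 against 0.425, 0.326 and 0.25 CPM. B and plasma cell genes were called higher in 5 of 5 but were low, with Jchain, the immunoglobulin joining chain, at 15 and 13.7 CPM. T cell receptor genes were near the detection limit, Cd3e at 0 and 1.9 CPM, and the T and NK list gave 2 called higher and 1 lower of 3 tested. Genes of MHC class II, which present antigen, were called higher in 5 of 6, with H2-Aa at 64 and 75.5 against 0, 0 and 0.0625 CPM. All 12 complement genes were called higher, led by C4b at 119 and 119 CPM against 0, 0.13 and 0 CPM.

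Tumor sgScr, of the same table as tumor sgTgfbr2, held the fibroblast list at 4615 to 4749 CPM, the endothelial list at 261 to 298 CPM and the macrophage list at 1164 to 1239 CPM, and PB, of the vehicle table, held them at 210.4 to 225, 5.62 to 7.29 and 43.4 to 48 CPM. The exocrine pancreas list stood at 1.25 to 2.38 CPM in tumor sgScr against 1.52 to 2.31 CPM in vehicle, and the endocrine list at 2.44 to 5.6 against 2.48 to 3.31 CPM. The fibroblast, endothelial and macrophage sums were thus high in both groups of the tumor table, and the stomach, pancreas and endocrine sums in tumor sgTgfbr2 but not in tumor sgScr. Most of the pancreas sum in tumor sgTgfbr2 was Clps and Pla2g1b, as most of the stomach sum was Pgc. Of 160 genes with no count in any vehicle library and at least 5 CPM in both tumor sgTgfbr2 libraries, 104 stood at 1 CPM or more in every tumor sgScr library, 16 had no count there and 40 lay between. The reverse, at least 5 CPM in every vehicle library and no count in tumor sgTgfbr2, held for 3 genes, Ulbp1, Mei4 and 4930461G14Rik, the last named after its values were seen. The part of cell content, table or culture in any difference given here was not tested.

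**Figure D4:**
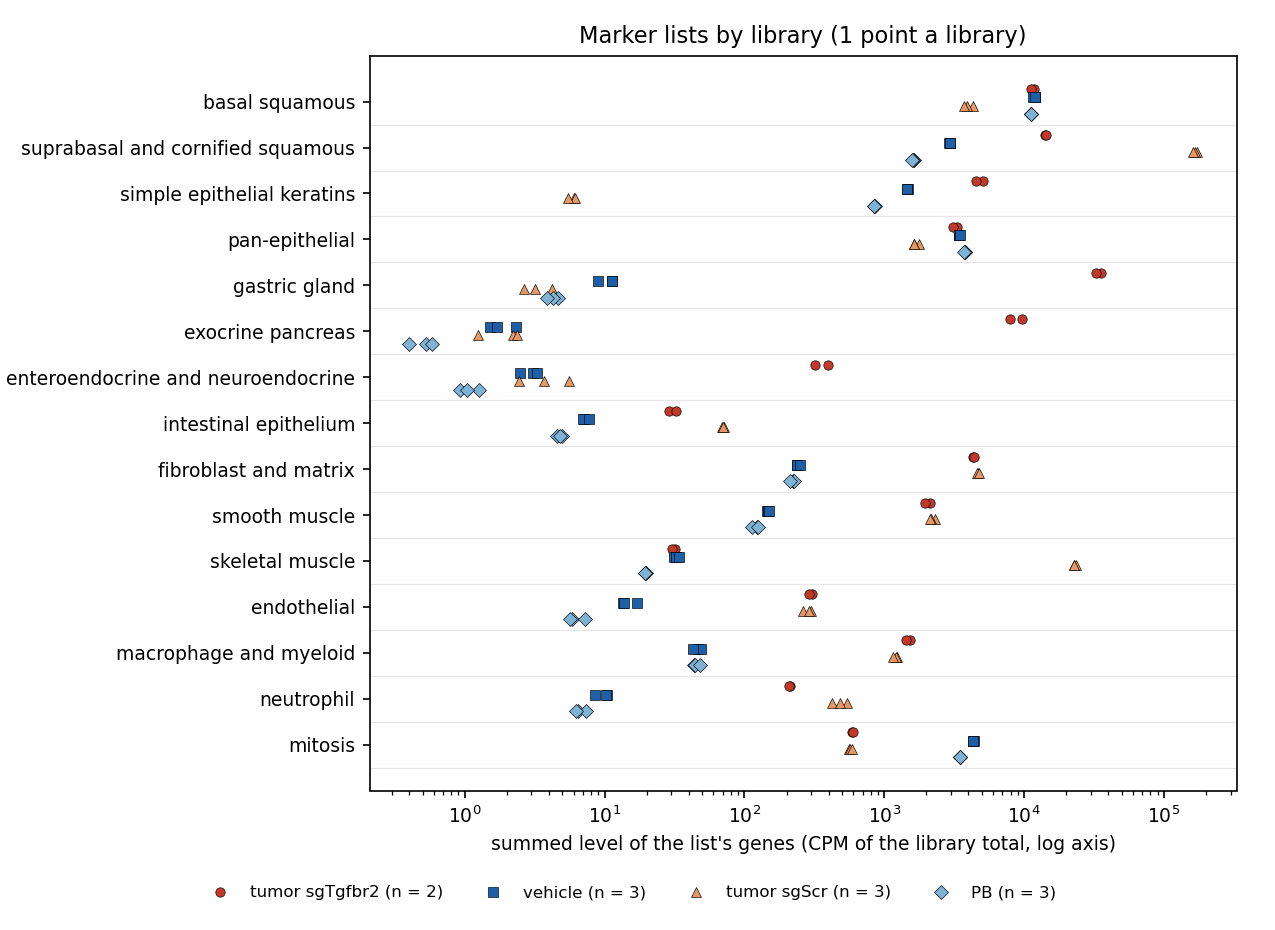
Summed CPM (log axis) of 15 gene lists in each library (points) of 4 groups. Gastric gland, exocrine pancreas and endocrine sums are high in tumor sgTgfbr2 alone among these groups, fibroblast, endothelial and macrophage sums are high in both groups of the tumor table, and skeletal muscle is high in tumor sgScr. Clps and Pla2g1b make up most of the exocrine pancreas sum in tumor sgTgfbr2.

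Cell division genes were the most uniformly lower group. Of 20 mitosis genes, 19 were called lower and none higher, with a median log2 fold change of −2.46 that was −2.46 with the length trend removed as well. Top2a, the topoisomerase that untangles sister chromosomes, stood at 55.5 and 60.3 CPM against 908, 914 and 898 CPM (log2 fold change −3.69 ± 0.06, adjusted p = 4.78e-09). Bub1b, a spindle checkpoint kinase, stood at 10.8 and 12.2 against 187, 189.6 and 184 CPM, and Cenpf, a kinetochore protein, at 12.3 and 13.8 against 194, 201 and 197 CPM. The sums were 590.4 to 601 CPM in tumor sgTgfbr2, 559 to 587 CPM in tumor sgScr, 4289 to 4352 CPM in vehicle and 3459 to 3481 CPM in PB, so the low values were shared by the tumor table. Of 20 DNA replication genes, 9 were called lower and none higher (median −0.94). Pole, the leading strand polymerase, stood at 12.3 and 11.3 against 90.4, 86.1 and 91.9 CPM, and Mcm3, of the replicative helicase, at 29.1 and 29 against 135, 144 and 141 CPM. Ribosome biogenesis genes that MYC is known to induce were mostly not called: 4 of 25 were lower, none higher, under the 21.4% of all genes. Cad, of pyrimidine synthesis, stood at 29 and 28.1 against 148, 145 and 155 CPM, whereas Nop58 and Utp20 fell under 2-fold with the length trend removed (−0.38 and −0.21).

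Glycolysis and hypoxia genes were called lower in 14 of 20 and higher in none (median −1.41). P4ha1, a collagen prolyl hydroxylase induced by hypoxia, stood at 13.4 and 12.9 against 221, 228 and 228 CPM (log2 fold change −3.82 ± 0.07, adjusted p = 8.78e-09), and Pfkp, a phosphofructokinase, at 32.4 and 32.5 against 348, 342 and 351 CPM. Genes of the integrated stress response, which ATF4 drives when translation is impaired, were called lower in 14 of 22 and higher in 1 (median −1.74). Trib3, a pseudokinase of that response, stood at 5.92 and 4.93 against 87.3, 79.4 and 86 CPM, and Aldh1l2, a mitochondrial folate enzyme, at 1.3 and 6.72 against 175, 182 and 176 CPM. PB libraries held Trib3 at 183, 174 and 173 CPM, above vehicle. Of the cholesterol synthesis list, 4 of 24 were called lower and 2 higher, or 4 and 0 with the length trend removed.

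Genes that respond to growth factors were lower as well. Immediate early genes were called lower in 11 of 18 and higher in 2 (median −1.19). Their sum was 2356 to 2481 CPM in tumor sgTgfbr2 and 5884 to 6030 CPM in vehicle. The vehicle sum was the highest of all groups in the series. PB, of the vehicle table, held 2575 to 2612 CPM, and tumor sgScr 1205 to 1321 CPM. Egr3, a zinc finger factor, stood at 1.09 and 2.18 against 73.1, 77.9 and 74.2 CPM, Fosb of the AP-1 family at 26.7 and 33.7 against 443, 429 and 433 CPM and Atf3 at 16.6 and 16.7 against 334, 332 and 336 CPM. ERK feedback genes were called lower in 8 of 12 and higher in none (median −1.70). Dusp6, the ERK phosphatase, stood at 38.1 and 47.5 against 597, 596 and 596 CPM (log2 fold change −3.52 ± 0.09, adjusted p = 3.13e-08), and Etv4, an ERK-responsive ETS factor, at 19.1 and 18.9 against 96.5, 99.3 and 94.6 CPM. Of 11 tested EGF-family ligands and receptors, 4 were called lower, 1 higher and 6 were not called. The ligands Nrg1, at 7.12 and 4.99 against 102, 106 and 101 CPM, and Hbegf, at 74.8 and 70.2 against 368, 378 and 358 CPM, were called lower. Btc was called higher (14.4 and 18.1 against 3.82, 3.13 and 2.44 CPM). Tumor sgScr held Dusp6 at 31.6, 29 and 31.6 CPM, near tumor sgTgfbr2, and PB held it at 114, 111 and 111 CPM.

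Interferon-stimulated genes were called lower in 15 of 20 and higher in 1 (median −1.52). Their sum was 387 to 397 CPM in tumor sgTgfbr2 and 1186 to 1200 CPM in vehicle, the highest of all groups in the series. PB held 802 to 816 CPM, tumor sgScr 505 to 532 CPM and the premalignant libraries 132 to 275 CPM. Rsad2, the antiviral protein viperin, stood at 1.52 and 0.728 against 47.9, 47.1 and 44.8 CPM (log2 fold change −5.08 ± 0.22, adjusted p = 3.27e-07), and Oas2, an oligoadenylate synthetase, at 5.49 and 6.83 against 107, 105 and 101 CPM. Tumor sgScr held Oas2 at 38, 27.8 and 34.7 CPM, between the groups. The NF-kB and inflammatory list went both ways, with 6 of 20 called higher and 8 lower. The cytokines Il1b (29.4 and 30.5 against 0.485, 0.456 and 0.563 CPM) and Il6 (4.94 and 5.94 against 0, 0.0652 and 0 CPM) were higher, and the chemokines Cxcl1 (3.53 and 4.26 against 101, 109 and 107 CPM) and Ccl20 (0.597 and 0.224 against 15.4, 14.7 and 13.7 CPM) were lower.

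Basement membrane and hemidesmosome genes went both ways. Of 20, 7 were called higher and 11 lower, and the median of −1.72 came to −0.70 with the length trend removed, with 7 higher and 9 lower. Lama2 and Lama4, laminin chains of muscle and vessels, stood at 11.8 and 14.3 and 12.2 and 18.1 CPM, with 1 vehicle count each. Lama3, Lamb3 and Itga3, of the epithelial laminin-332 contact, were called lower. Tight junction genes were called higher in 10 of 18 and lower in 1, with Cldn3 at 544 and 440.0 against 35.9, 38.6 and 41.1 CPM. Desmosome genes gave 1 of 10 in each direction: Perp was higher (1594 and 1563 against 775, 772 and 740.2 CPM) and Dsc3, desmocollin 3, lower (37 and 49 against 224, 239 and 222 CPM).

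Genes of the TGF-beta pathway itself were called in part, at levels given here by role. Of 12 receptors and Smads, 4 were called higher and 1 lower (median 0.07, turning to −0.21 under library-total scaling). The endothelial co-receptor Eng, at 23.1 and 27 against 1.27, 0.978 and 1.06 CPM, was called higher. So was the endothelial receptor Acvrl1, at 12.5 and 10.4 against 1.46, 1.04 and 1.88 CPM. Tgfbr3 and Smad7 were the rest of the 4. Smad2 and Smad4 were tested and not called. Of 10 ligands and latent binding proteins, 5 were called higher and 1 lower, or 6 and 0 with the length trend removed. Tgfb2 stood at 13.5 and 11.7 against 0.971, 0.913 and 1.19 CPM, and Ltbp2, a latent TGF-beta binding protein of matrix, at 40.0 and 38.2 against 4.31, 4.37 and 4.31 CPM. Lrrc32, the membrane anchor of latent TGF-beta, stood at 11.5 and 19.4 against 0, 0.0652 and 0 CPM.

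Of 25 known TGF-beta target genes, 17 were called higher and 2 lower (median 1.86). Ctgf, a matricellular growth factor, stood at 366 and 367 against 4.61, 4.24 and 4.44 CPM (log2 fold change 6.65 ± 0.07, adjusted p = 1.41e-09). Tagln, an actin binding protein, stood at 588 and 504 against 3.09, 2.87 and 3.19 CPM and Postn, periostin, at 131 and 149 against 0.0607, 0.0652 and 0 CPM. Targets that fibroblasts and smooth muscle also express, such as Col1a1, Postn and Tagln, were high in tumor sgScr too (Col1a1 242, 171 and 184 CPM), beside the fibroblast list given above, whose part in the result was not tested. The cell cycle inhibitors Cdkn2b (98.7 and 84.3 against 27.1, 29.5 and 31.5 CPM, chosen after its value was seen) and Cdkn1a (134 and 129 against 67.6, 60.1 and 63.5 CPM) were called higher. Cyr61 and Snai2 were the 2 called lower. BMP and ID genes were called higher in 9 of 16 and lower in 2, with Id3, an inhibitor of helix-loop-helix factors, at 147 and 129.9 against 27.8, 28 and 25.3 CPM and Bambi, a decoy receptor, at 21.6 and 17.8 against 3.7, 3.39 and 2.88 CPM. Mesenchymal regulators and markers were mostly higher, with 8 of 11 tested called higher and 3 lower (median 3.98). Zeb1 (8.36 and 11.9 against 0.364, 0 and 0 CPM) and Zeb2 were among those higher, while Snai2, Twist1 and Twist2 were lower.

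**Figure D5:**
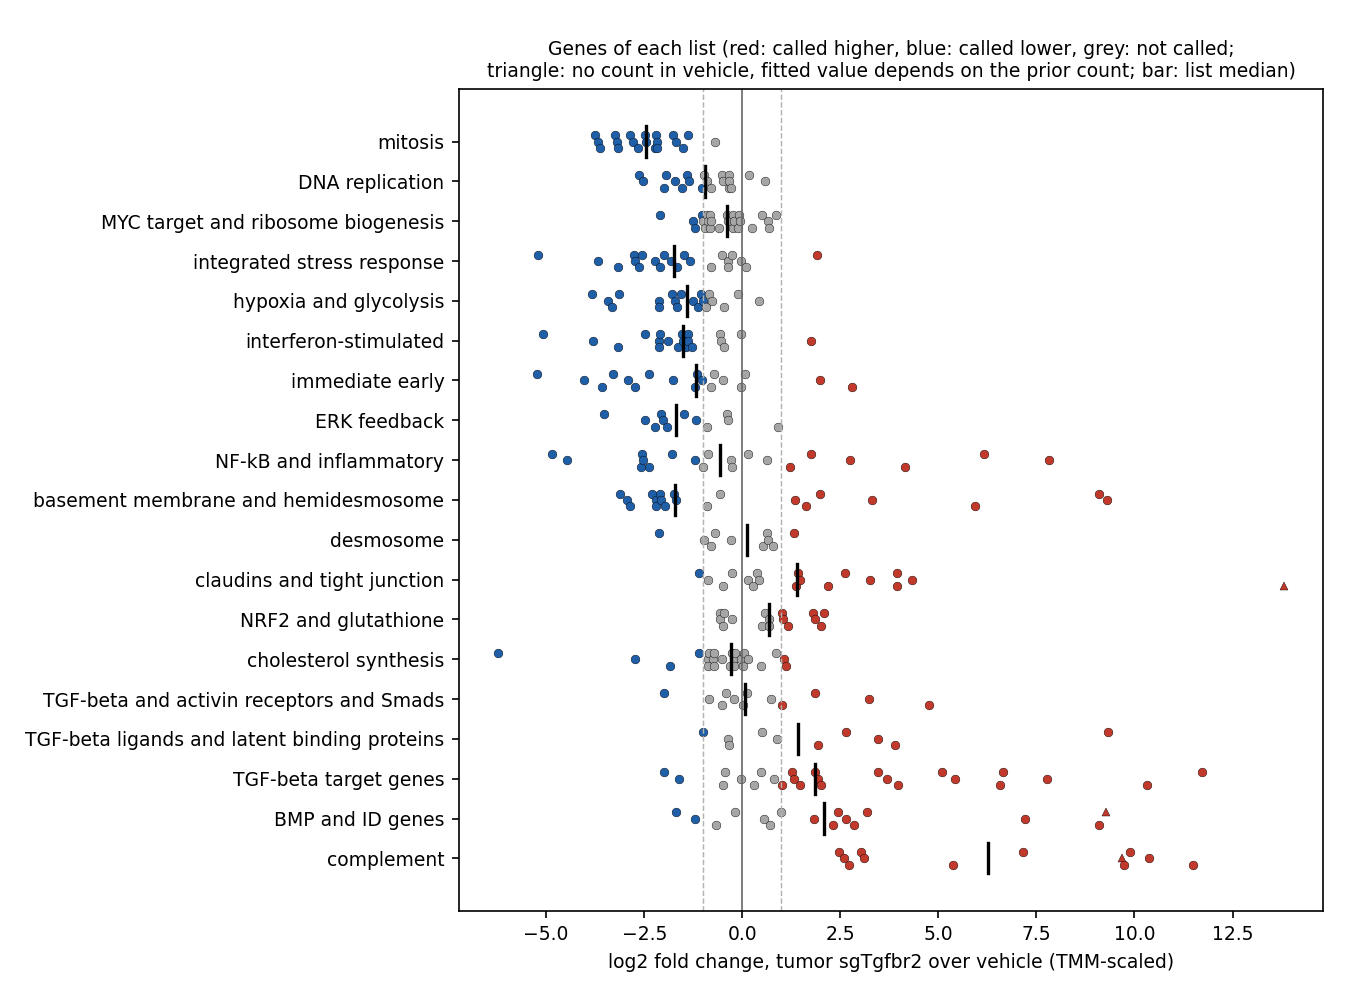
Fitted log2 fold change of tumor sgTgfbr2 over vehicle (x axis) for the tested genes of 19 lists (rows), with called genes in red or blue, others in grey and the list median as a bar. Mitosis genes lie wholly on the lower side (19 of 20 called) and complement genes wholly on the higher side (12 of 12 called).

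The genes with the lowest fold changes were a mixed group. Ulbp1, a ligand of the NK cell receptor NKG2D, stood at 13.4, 13.5 and 13.8 CPM in vehicle and at 0 in both tumor sgTgfbr2 libraries, at least 135-fold lower (adjusted p = 1.28e-06). Mei4, a meiotic recombination gene, stood at 7.71, 7.3 and 9.44 CPM in vehicle, 34.1, 33.2 and 34.4 CPM in PB and at 0 in tumor sgTgfbr2 (at least 81.3-fold lower). Tbc1d21, a TBC domain gene, stood at 4.67, 5.15 and 6.38 CPM against 0 (at least 53.8-fold lower). Grik3, a kainate-type glutamate receptor subunit, stood at 148, 144 and 145 CPM in vehicle against 0.109 and 0.616 CPM (log2 fold change −8.36 ± 0.23, adjusted p = 4.26e-08), and in tumor sgScr at 1.11, 0.371 and 0.416 CPM. Rps6ka6, a ribosomal S6 kinase gene, was different: vehicle held 20.9, 23.5 and 19.2 CPM and tumor sgScr 31.9, 35.7 and 44.1 CPM, but tumor sgTgfbr2 held 1 count in all, a ratio of 633 lower (95% counting interval 113 to 25009). The remaining genes of the 10 lowest were Ankrd6, Lzts1, Htr5b, H2-Q5 and Mir24-2, between 6.01, 5.8 and 4.94 CPM of Htr5b, a serotonin receptor gene, and 23.5, 24.2 and 23.1 CPM of Lzts1 in vehicle. H2-Q5 belongs to a family of near-identical class I genes, so its counts are uncertain, and Mir24-2 is a gene row of long RNA, not a mature miRNA.

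Genes of the 10 highest outside the stomach and pancreas lists were Col3a1, Serpina3n, Lyz2 and Mgp. Serpina3n, a serine protease inhibitor, stood at 625 and 583 CPM with no vehicle count, and Mgp, matrix Gla protein, at 1745 and 1402 against 0, 0.0652 and 0 CPM. Tumor sgScr held both, Serpina3n at 198, 191 and 187 CPM and Mgp at 166, 195 and 161 CPM.

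Lists of core metabolism and translation had few calls. Of 26 nuclear oxidative phosphorylation genes 1 was called higher, and of 26 cytosolic ribosomal protein genes 2 were called higher, with medians of 0.61 and 0.34 that came to 0.11 and −0.089 with the length trend removed, when no gene of either list was called. Genes of the NRF2 response to oxidants were called higher in 7 of 16, or 5 with the length trend removed. Gclc, of glutathione synthesis, stood at 304 and 383 against 96.3, 100.0 and 99.6 CPM. ER chaperones and heat shock genes gave 3 called in each direction, of 18 and of 13. Hspa1a stood at 306 and 376 against 115, 111 and 112 CPM and Hspd1 at 167 and 170.3 against 617, 632 and 625 CPM. Of 23 calcium channel and handling genes, 10 were called higher and 1 lower, led by Cacna2d1, a channel subunit, at 11.9 and 12.3 against 0.121, 0.0652 and 0.313 CPM, where tumor sgScr held 22.1, 23.7 and 23.1 CPM. Trpv4, a cation channel, was the 1 called lower (15.2 and 11.9 against 67.5, 67.4 and 72 CPM). Of the p53 targets 3 of 14 were called higher and 1 lower.

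Other lists covered nuclear-retained RNA, sex-linked genes and histones. Malat1, a nuclear-retained long RNA, stood at 448 and 861 CPM against 2284, 2504 and 2826 CPM, and 4 of 5 such RNAs were called lower, with Meg3, an imprinted long RNA, the exception at 71.6 and 66.7 against 0, 0.0652 and 0 CPM. The higher tumor sgTgfbr2 value of Malat1 was replicate 2, and the groups did not overlap. Both groups expressed the Y-linked genes Ddx3y (58.7 and 71.6 against 74, 81.7 and 74 CPM) and Eif2s3y (50.8 and 42.6 against 65.7, 65.8 and 63.2 CPM) and held Xist at or under 1.56 CPM, and neither Ddx3y nor Eif2s3y was called. Of the 5 sex-linked genes none was called higher and 1 lower, the Y-linked demethylase gene Kdm5d, at 6.03 and 12.4 against 30.0, 30.3 and 29.7 CPM (log2 fold change −1.43 ± 0.24, adjusted p = 0.000756), a call lost with the length trend removed (−0.72). Of 9 tested replication-dependent histone genes 2 were called higher, among them Hist1h1c (97.2 and 97.7 against 17.4, 14.7 and 16.6 CPM).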

How the data were processed

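RNA was extracted with Trizol from bulk organoids, per the labels' protocols. The authors deposited whole-number counts per gene symbol in 3 tables of 24421 genes. The submitters' processing notes name mm10, STAR 2.6.0a and DESeq2 1.26.0. The counting tool, strand setting and annotation were not given in the sources used here, and none was assumed. The 24394 symbols shared by all tables were joined, leaving out 27 symbols turned into dates. Only deposited counts were used.

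Genes were kept by filterByExpr (minimum count 10), scaled by TMM and tested with edgeR 4.0.16 (glmQLFit and glmQLFTest, two-sided, Benjamini-Hochberg, R 4.3.3) on the 5 libraries, after the script was tested on simulated data. A call needed an adjusted p below 0.05 and a fold of at least 2 in either direction. The ± of a fold change is its standard error. Transcript lengths came from GENCODE M21, which matched 23311 symbols (95.6%). Groups came from titles and genotypes in the labels.

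Genes were named by rule: Tgfbr2, Smad3, Trp53, Cdkn2a, Myc, the 10 highest and 10 lowest called genes of at least 5 CPM whose groups did not overlap, up to 4 called members of each of 62 lists by fold change, and the first 3 genes of each marker list. Members and lists were chosen with earlier results of these data known. Other named genes were chosen after their values were seen. Some genes the rule names are not reported here. Near-identical genes share reads, so their split is uncertain. Alternatives were DESeq2 1.42.0, limma 3.58.1 (voom), other scalings and filters, glmTreat, 11 libraries, a replicate block, 4-fold, each library left out and removal of the length trend.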

Additional observations from a re-analysis of the deposited data

How the results depend on the processing

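The counts of called genes stayed within 1.5 times under every alternative except a 4-fold minimum, which left 2418 higher and 1245 lower by its construction. Leaving out each library gave 3764 to 4081 higher and 2946 to 3539 lower, and where tumor sgTgfbr2 was left with 1 library, it is assumed to vary like vehicle. Between tables and groups no term can be separated.

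The replicate block gave 3631 higher and 2978 lower and 10535 genes past the adjusted p alone, but same-numbered libraries of the 2 groups did not deviate together (correlations 0.015 and 0.01), so they share only a number. Of 3974 values of named genes under the alternatives, 3912 kept direction and call, 49 lost the call (16 genes), 4 gained it and 9 turned. Many of these genes were named for large fold changes in the main fit, so most were likely to keep their call by that choice. Tgfbr2 turned to 0.55 with the length trend removed. Cldn7 turned under library-total scaling (−0.14), pan-epithelial scaling (−0.030) and length removal (−0.35). As Cldn7 belongs to the list that pan-epithelial scaling is set by, its value under that scaling is not independent. Acta1, at most 1.12 CPM, turned with limma-voom (−1.57), library totals (−0.13), the block (−0.49), length removal (−0.28) and without tumor sgTgfbr2 replicate 2 (−6.27); the cause was not tested.

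Of 1037 list medians under the alternatives, 752 moved by less than the spread between replicates, 266 moved by more in the same direction and 19 turned. Library totals and pan-epithelial scaling turned the pan-epithelial list (−0.17 and −0.063) and receptors and Smads (−0.21 and −0.092). They also turned desmosome (−0.16 and −0.036). With each library left out the desmosome median ran from −0.10 to 0.25, and it turned there only without tumor sgTgfbr2 replicate 2. Pan-epithelial scaling makes the summed count of the pan-epithelial list equal in all libraries, so the value of that list under it was largely set by construction. Library totals turned p53 targets (−0.034). Length removal turned ribosomal proteins (−0.089) and Wnt (0.28). Small lists turned under some settings that filter the genes anew. Lung and airway turned without a filter (4.12), at 1 CPM (1.0) and with 11 libraries (0.99). With each library left out its median ran from −1.40 to 1.38. It turned there without tumor sgTgfbr2 replicate 2 and without vehicle replicate 2 or 3. Skeletal muscle turned without a filter (0.15), and mesothelial at 1 CPM (4.11) and without tumor sgTgfbr2 replicate 1 (1.79). Depth limits genes near 0.163 to 0.196 CPM, the level of 3 counts.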
